A study of Mus musculus with 2 samples.

Results

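The genes described here load peptides onto MHC class I (MHC-I) or form the complex itself. They are the 10 genes H2-K1, H2-D1, B2m, Nlrc5, Tap1, Tap2, Tapbp, Psmb8, Psmb9 and Erap1, chosen by name from the 32285 genes of the count matrices, and all 10 were found. They were measured by single-cell RNA-seq of splenic dendritic cells (DC) from WT mice, with genotype H2-Aa +/+, and from H2-Aa cit/cit mice, whose ENU-induced splice allele citation leaves them without the MHC class II α chain (called cit/cit here). Each genotype gave 1 library, made from DC of 3 naive female mice at 4 months of age, with the mice pooled and no barcode that separates them. Cells were enriched on CD11c beads and then sorted as live CD45.2+ CD11c+ cells, so both gates shape which cells could be seen. With 1 library per genotype there is no replicate and no test, and a difference between genotypes and a difference between libraries cannot be told apart.

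MHC-I carries peptides from inside the cell to the surface for CD8+ T cells. H2-K1 and H2-D1 encode its classical heavy chains and B2m the light chain, β2-microglobulin. Nlrc5 is the transactivator that acts on MHC-I promoters, through factors that sit on the X and Y boxes there. Psmb8 and Psmb9 are interferon-inducible catalytic subunits of the immunoproteasome, which cuts proteins into peptides. Tap1 and Tap2 form the transporter that brings peptides into the endoplasmic reticulum (ER), Tapbp (tapasin) bridges it to the empty heavy chain, and Erap1 trims peptides to fit the groove. In DC the pathway also serves cross-presentation, in which peptides of engulfed proteins are shown on MHC-I, a task for which conventional type 1 DC (cDC1) are known.

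The bases before the start site are shown for the heavy chains and for B2m because these genes are known targets of Nlrc5 and of interferon and NF-κB signalling. The sequences are RefSeq's for GRCm38.p6, 5′ to 3′ on the gene's strand. Capitals mark matches, on either strand, to the interferon-response type TTTCNNTT, the κB type GGGNNTTCC, the X2 type TGACG and the Y type ATTGG. No match overlapped another in the windows shown. The 250 bases before H2-K1 (chr17:34000348-34000597, minus strand) hold all 4 types, and the B2m window (chr2:122147437-122147685, plus strand, 249 bases outside annotated exons) holds 3 of them, with no match to GGGNNTTCC. A κB site of another length need not match this pattern and would then stand unmarked, so B2m may still hold one. Of H2-D1, whose RefSeq window lies inside an exon of another annotated transcript, only the stretches that hold the 4 matches shared with H2-K1 are given (chr17:35262923-35262951 and chr17:35262993-35263022, plus strand), and they can be read against the same stretches of H2-K1.
H2-K1 window: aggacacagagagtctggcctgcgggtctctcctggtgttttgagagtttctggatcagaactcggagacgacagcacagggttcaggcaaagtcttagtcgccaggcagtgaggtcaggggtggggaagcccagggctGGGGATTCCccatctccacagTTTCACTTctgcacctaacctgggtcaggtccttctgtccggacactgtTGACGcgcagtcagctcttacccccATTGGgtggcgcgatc
B2m window: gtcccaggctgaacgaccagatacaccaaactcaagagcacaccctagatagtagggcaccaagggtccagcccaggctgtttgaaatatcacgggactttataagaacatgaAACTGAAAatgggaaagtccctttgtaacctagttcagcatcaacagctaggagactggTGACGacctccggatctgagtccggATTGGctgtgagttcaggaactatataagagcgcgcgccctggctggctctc
H2-K1, κB to interferon type: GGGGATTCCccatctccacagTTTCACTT
H2-D1, κB to interferon type: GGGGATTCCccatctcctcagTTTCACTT
H2-K1, X2 to Y type: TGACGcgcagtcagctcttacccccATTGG
H2-D1, X2 to Y type: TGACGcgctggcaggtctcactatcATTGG
B2m, X2 to Y type: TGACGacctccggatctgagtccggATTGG

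The spacing of the matches was the same in H2-K1 and H2-D1, with 21 bases from the κB type to the interferon type, 49 from there to the X2 type and 25 from the X2 type to the Y type. B2m shared the last of these spacings. A second Y-type match of H2-D1, on the opposite strand, lies outside the stretches shown. Over a stretch of 190 bases aligned without gaps, the H2-K1 and H2-D1 windows were identical at 166 bases (87.4%). Among the 32851 windows of 250 bases in the RefSeq table, the interferon type was found in 21.3%, the κB type in 4.98%, the X2 type in 17.8%, the Y type in 33.8%, and all 4 in 33 windows (0.1%). The X2 and Y types stood 25 bases apart, first base to first base, on the gene's strand in 18 windows (0.0548%). These belonged to 15 genes, among them H2-K1, H2-D1, B2m and the non-classical H2-M3. A match describes the letters only. The table held a window for 8 of the 10 genes, not for Nlrc5 or Tap2. Tap1 and Psmb9 lie head to head, with RefSeq start sites 226 bases apart, so that their windows overlap by 225 bases.

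By the GENCODE vM21 annotation of GRCm38, 7 of the 10 genes lie on chromosome 17, in the same region as the mutated gene H2-Aa (chr17:34282744-34287823). Their gaps to H2-Aa run from 66.4 kb for Tap2 (chr17:34203527-34216321) to 974.9 kb for H2-D1 (chr17:35262730-35267499). H2-K1 (chr17:33996017-34000347), Tapbp (chr17:33915899-33929292), Psmb9 (chr17:34181987-34187764), Tap1 (chr17:34187553-34197225) and Psmb8 (chr17:34197721-34201454) lie between these limits. B2m (chr2:122147686-122153083), Nlrc5 (chr8:94434356-94527272) and Erap1 (chr13:74639568-74693201) are elsewhere. Because 3′ reads of near-identical genes can be lost or shared, the last 500 bases of each gene's longest coding transcript were cut into 411 stretches of 90 bases. For each of the 10 genes, H2-K1 and H2-D1 included, 0 of 411 had an exact match in transcripts of another gene. Other 3′ ends of these genes were not checked.

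The WT library held 7814 cells and 51020804 UMIs (unique molecular identifiers, each counting 1 captured RNA molecule), and the cit/cit library 11525 cells and 72652201 UMIs. Median depth was similar, at 5492 and 5633 UMIs per cell, whereas the median share of UMIs from ribosomal protein genes was 11.2% in WT and 16.5% in cit/cit cells. H2-Aa itself had 276007 UMIs in WT and 4807 in cit/cit cells, a log2 ratio of −6.35. The libraries shared 31 cell barcodes. Cells were placed by marker genes into 15 classes, whose names stand for the marker gates. Conventional type 2 DC (cDC2) were split by summed UMIs of marker genes. Esam/Clec4a4 cDC2 had at least 2 UMIs per 10000 of Clec4a4, Esam, Dtx1, Ffar2 and Cd209e together. A cell could thus enter without Esam or Clec4a4. The class need not match the ESAM-high kind known to depend on Notch2 signals in the spleen. Ccr2/Mgl2 cDC2 were set by Ccr2, Mgl2, Cd209a, Clec10a and Clec12a, and the remaining cDC2 are called other cDC2. Mature DC, marked by genes such as Ccr7 and Fscn1, were split by whether they also held cDC1 genes. Cells outside the other gates with under 10% ribosomal UMIs were set apart as ribosome-poor cells before the cDC2 gates were applied, and given no cell type name, so that all cDC2 classes hold cells at or over this share. The summed level of the 8 cDC1 markers, which the gate itself used, was 3049 CPM (UMIs as counts-per-million of the class) in cDC1 and 33.6 CPM in Esam/Clec4a4 cDC2 of WT mice.

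The libraries differed in the shares of their classes. Mature DC were 1883 of 7814 WT cells (24.1%) and 1149 of 11525 cit/cit cells (9.97%), and gave 27.3% of WT UMIs against 8.60% of cit/cit UMIs. Mature DC with cDC1 genes numbered 208 in WT and 16 in cit/cit mice. Esam/Clec4a4 cDC2 gave 21.8% and 34.5% of the UMIs, Ccr2/Mgl2 cDC2 5.58% and 10.2%, and other cDC2 6.16% and 12.7%. Ribosome-poor cells were 25.4% and 22.5% of the cells, and cDC1 6.81% and 5.12%.

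Levels below are counts-per-million values (CPM), over all UMIs of the library or class, and ratios are cit/cit over WT on the log2 scale. Intervals are 95% intervals of counting error alone and leave out the spread between cells and between mice. A gene is counted as higher or lower when it differs by at least 0.32 on the log2 scale (the fold rule), a rule of size without a test, read over genes with a mean of at least 20 CPM in both libraries.

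Summed over all cells, Nlrc5 was the member with the widest gap. It stood at 247 CPM (243 to 252) in WT and 142 CPM (139 to 144) in cit/cit DC, a log2 ratio of −0.80 (−0.84 to −0.77). Tapbp was at 183 and 136 CPM (log2 ratio −0.42) and Tap2 at 117 and 91.9 CPM (−0.34). These 3 genes were lower by the fold rule and 0 were higher, where 14.1% of all 6542 genes over the floor were lower and 13.2% higher. B2m had 1836 CPM in WT and 1509.8 CPM in cit/cit DC, a log2 ratio of −0.28 (−0.29 to −0.27). The others had smaller ratios, of −0.06 for H2-D1 (1408 and 1352 CPM), −0.04 for Erap1 (68.8 and 67.0 CPM), 0.11 for Tap1 (141 and 153 CPM), 0.12 for H2-K1 (1300.2 and 1411 CPM), 0.14 for Psmb9 (319 and 351 CPM) and 0.26 for Psmb8 (450.0 and 540.3 CPM). The median over the 10 members was −0.05, beside 0.01 over all genes.

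The gap of Nlrc5 went with the class shares. WT levels combined in the class shares of the cit/cit library gave 139.7 CPM, close to the level seen there, and a log2 ratio of −0.82 from shares alone. Of the difference of −105.7 CPM, −89.9 CPM lay in the shares and −15.8 CPM within classes. Mature DC gave 68.1% of all Nlrc5 UMIs in WT and 26.4% in cit/cit DC. With cit/cit levels weighted by WT class shares, the log2 ratio of Nlrc5 was −0.21 (−0.27 to −0.15). Weighted by cit/cit shares, it was 0.02, with an interval of −0.02 to 0.06, so that the sign of what is left for Nlrc5 depended on the weights. Tap2 and Tapbp also moved toward 0, from −0.34 to −0.12 and from −0.42 to −0.21 with WT weights, with −0.29 for each from shares alone. With cit/cit weights Tap2 was at −0.05 (−0.11 to 0.01). Tapbp was then at −0.14 (−0.19 to −0.09), so that it stayed below 0 with either weights. Of its difference of −46.7 CPM, −27.5 CPM lay in the shares and −19.1 CPM within classes.

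For the heavy chain H2-K1 the class shares hid a difference. Shares alone gave −0.18, and with WT weights its ratio was 0.26 (0.24 to 0.28) in place of 0.12. Tap1 stood at 0.20 (0.14 to 0.26) with WT weights and 0.30 with cit/cit weights. Psmb8 and Psmb9 had nearly the same ratio with and without weighting, at 0.22 and 0.12, and their ratios from shares alone were 0.03 and 0.01. H2-D1 was at 0.05, B2m at −0.15 and Erap1 at −0.04. With WT weights 0 of the 10 members passed the fold rule in either direction, beside 5.46% of all genes higher and 5.37% lower. The plot of ratios before and after weighting shows Nlrc5, Tapbp and Tap2 moving toward 0 and H2-K1 and Tap1 away from it.

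**Figure D1:**
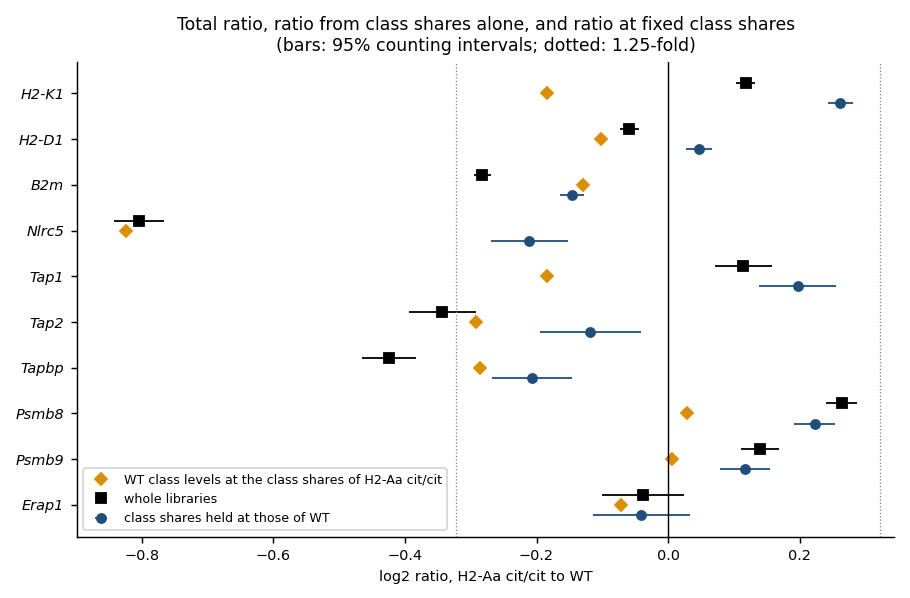
The log2 ratio of H2-Aa cit/cit to WT (x axis) of each of the 10 genes in the whole library, from class shares alone, and with WT class shares as weights, with 1 library per genotype and bars for 95% counting intervals. Nlrc5 sat at −0.80 in the whole library, at −0.82 from shares alone and at −0.21 with WT weights, while H2-K1 went from 0.12 to 0.26.

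Each gene had its own order of classes, given here for the 12 classes, unassigned cells left out, with at least 50 cells in both libraries together. Nlrc5 had the widest range in WT DC, from 65.5 CPM in monocyte-like cells to 879.5 CPM in mature DC with cDC1 genes, 13.4-fold. Mature DC without cDC1 genes followed at 554 CPM, and every other class was at or under 188 CPM. In cit/cit DC the range was 6.03-fold, from 91.4 CPM in cDC1 to 551 CPM (436 to 688) in the 16 mature DC with cDC1 genes. Between the neighbours in the WT order 8 of 11 pairs had overlapping intervals, so much of the order below the mature classes is not settled by these counts. Ribosome-poor cells (146 to 166 CPM) did stand clear of the next class, pDC-like cells (95.7 to 135 CPM).

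H2-K1 ranged 3.59-fold in WT, from 573 CPM in ribosome-poor cells to 2056 CPM in mature DC without cDC1 genes, with pDC-like cells at 2056 CPM also. H2-D1 and B2m were lowest in ribosome-poor cells too (578 and 608 CPM) and highest in monocyte-like cells (2314 and 2861 CPM), with B2m in mature DC with cDC1 genes at 2859 CPM. In WT cDC1 H2-K1 (822 CPM) and B2m (1189 CPM) were below each of the 3 cDC2 classes, and H2-D1 (1194 CPM) was level with Esam/Clec4a4 cDC2 (1198 CPM).

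The immunoproteasome subunits had another order. Psmb8 was highest in cDC1 of both libraries, at 742 CPM in WT and 1022 CPM in cit/cit DC, against 127 and 156 CPM in ribosome-poor cells, 5.83-fold and 6.55-fold lower. Psmb9 was highest in cDC1 as well, at 584 and 695 CPM. Tap1, Tap2 and Tapbp were highest in WT in mature DC with cDC1 genes, at 273, 247 and 395 CPM. In cit/cit DC the class with the highest Tap1 was cDC1 at 257 CPM, with the small class of mature DC with cDC1 genes at 233 CPM (161 to 328) overlapping it. Erap1 ranged 2.27-fold in WT, from 42.2 CPM (35.0 to 50.4) in Ccr2/Mgl2 cDC2 to 95.7 CPM (88.4 to 103) in ribosome-poor cells. All 11 neighbouring pairs overlapped, but the intervals of these ends did not. In cit/cit DC it ranged 5.13-fold, from 27.2 CPM (14.0 to 47.5) in monocyte-like cells to 139 CPM (81.2 to 223) in NK-like cells.

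**Figure D2:**
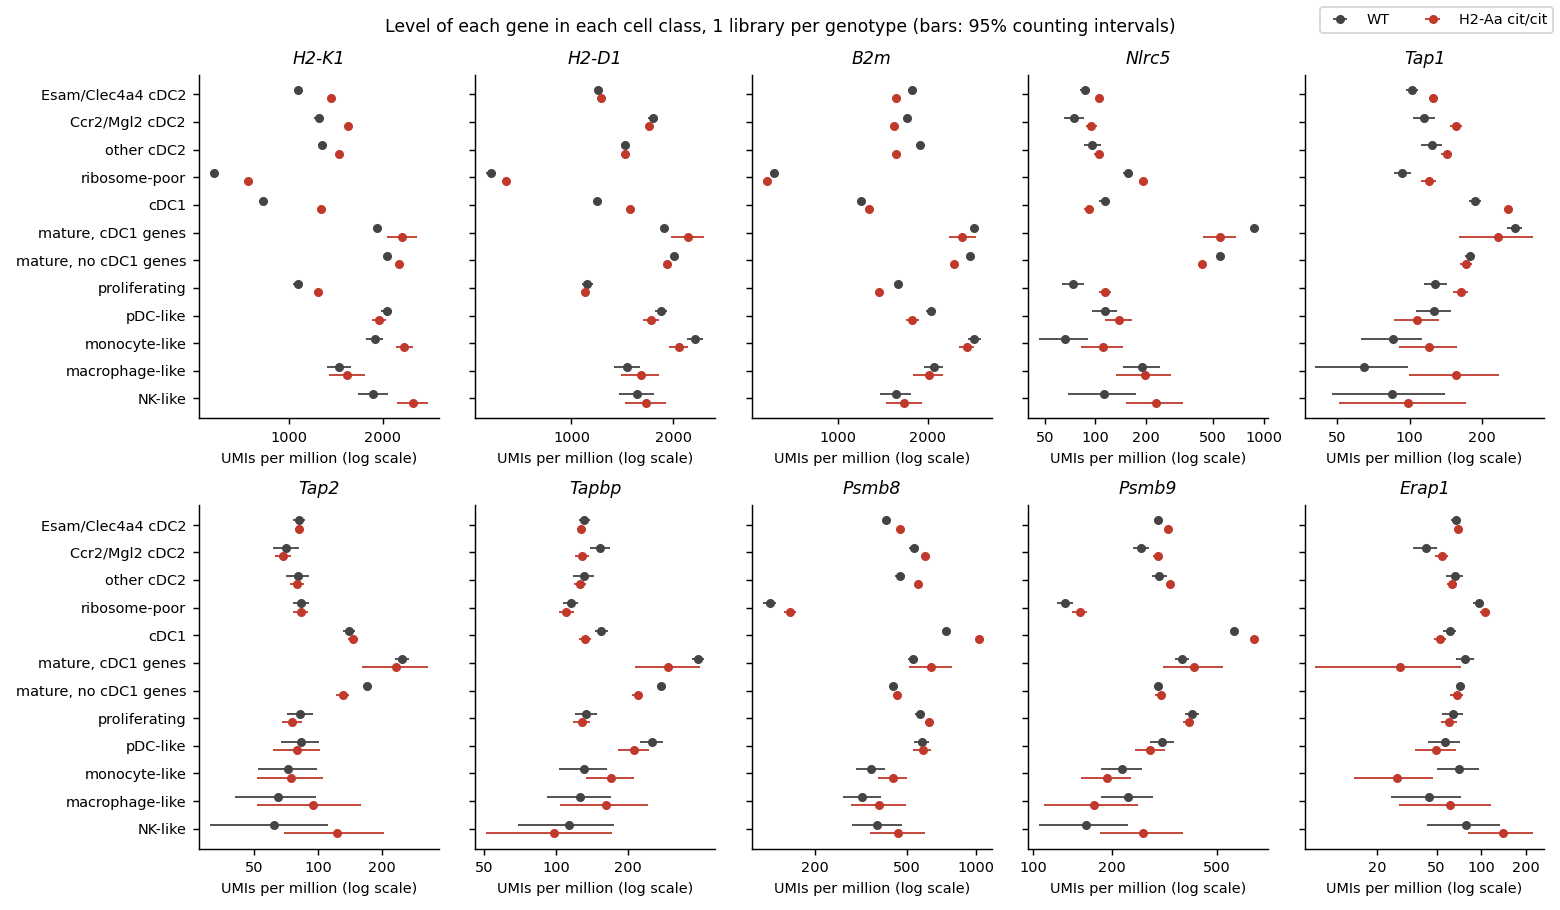
Level in CPM (x axis, log scale) of each of the 10 genes in 12 cell classes (y axis) in the WT and the H2-Aa cit/cit library, with points for the class sums and bars for 95% counting intervals. Nlrc5 was highest in mature DC of both libraries, Psmb8 and Psmb9 were highest in cDC1, and H2-K1, H2-D1 and B2m were lowest in ribosome-poor cells.

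In Esam/Clec4a4 cDC2 (1380 WT and 3403 cit/cit cells), H2-K1 stood at 1067 CPM (WT) and 1365 CPM (cit/cit), from 11859 and 34222 UMIs, a log2 ratio of 0.36 (0.32 to 0.39). It was the 1 member of 10 higher by the fold rule, with 0 lower, where 5.99% of all genes were higher and 4.55% lower, and 2 members passed with cells placed by marker z-score. Its companion H2-D1 was nearly level, at 1198 and 1222 CPM, a ratio of 0.03 whose interval reached 0, and B2m was lower in cit/cit cells, at 1762 and 1559 CPM, a ratio of −0.18 (−0.20 to −0.15). Nlrc5 here stood higher in cit/cit cells, at 86.6 and 105 CPM from 963 and 2642 UMIs, a ratio of 0.28 (0.18 to 0.39). Tap1 was at 102 and 125 CPM (0.29, interval 0.19 to 0.39), while Tap2 had the same level at 81.2 and 81.8 CPM (0.01) and Tapbp was at 132 and 127 CPM (−0.05). Psmb8 and Psmb9 had ratios of 0.19 and 0.12 and Erap1 of 0.06. The median over the members was 0.09.

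Ccr2/Mgl2 cDC2 (278 and 873 cells) gave 3 members higher and 0 lower, beside 8.3% of genes higher and 7.19% lower. The count was 1 (Tap1) with gate thresholds halved or doubled and 0 with cells placed by marker z-score. Tap1 stood at 115 CPM (WT) and 157 CPM (cit/cit) (0.45, interval 0.27 to 0.63), Erap1 at 42.2 and 54.0 CPM (0.36, interval 0.06 to 0.66, from 120 and 400 UMIs) and Nlrc5 at 74.5 and 94.4 CPM (0.34, interval 0.12 to 0.57, from 212 and 700 UMIs). The wide intervals of the last pair come with the few UMIs in WT. H2-K1 was just under the rule at 1243 and 1539.5 CPM (0.31), and Tapbp was on the other side of 0 at 154 and 129 CPM (−0.26). In other cDC2 0 members passed in either direction, beside 8.49% of genes higher and 8.42% lower, with ratios of 0.26 for Psmb8, 0.21 for Tap1, 0.18 for H2-K1, 0.13 for Nlrc5 and −0.26 for B2m.

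In ribosome-poor cells (1984 and 2597 cells, with median depths of 2878 and 2193 UMIs) 2 members were higher and 0 lower, beside 9.91% of genes higher and 6.56% lower, and the count was 4 with gate thresholds halved and 0 with thresholds doubled. The 2 were H2-K1, at 573 and 736 CPM, and Tap1, at 93.4 and 119.9 CPM, each with a ratio of 0.36. Nlrc5 was at 156 and 192 CPM (0.30) and Psmb8 at 127 and 156 CPM (0.29). B2m was at 608 and 576 CPM (−0.08), Tap2 at 83.1 and 82.8 CPM and Tapbp at 115 and 111 CPM.

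cDC1 (532 and 590 cells, with median depths of 10749 and 14814.5 UMIs) held 4 members higher by the rule and 0 lower. In this class 17.1% of all genes were higher and 20% lower, so that the libraries were far apart over all genes. H2-K1 had its widest ratio among the conventional DC classes here, at 822 and 1262 CPM (0.62, interval 0.57 to 0.67), and H2-D1 was higher as well, at 1194 and 1494 CPM (0.32, interval 0.28 to 0.37). Psmb8 was at 742 and 1022 CPM (0.46) and Tap1 at 187 and 257 CPM (0.45). B2m, lower in cit/cit cells of all 3 cDC2 classes, was at 1189 and 1273 CPM (0.10), and Psmb9 was at 584 and 695 CPM (0.25). Nlrc5 was lower here, at 114 and 91.4 CPM, a ratio of −0.31 (−0.46 to −0.17), short of the rule, and Tapbp was at 155 and 132 CPM (−0.24).

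RNA of mature DC markers also differed in cDC1, with a summed level of 505 CPM in WT and 74.0 CPM in cit/cit cells. Its part in the Nlrc5 ratio was not tested. Among cDC1 without a UMI of any of these markers (103 of 532 WT and 404 of 590 cit/cit cells), the ratio of Nlrc5 was 0.42, that of H2-K1 was 0.87 and that of H2-D1 was 0.57. Psmb8 fell there to 0.11, short of the rule, while Tapbp (−0.35) and Erap1 (−0.34) were past it in the lower direction. This restriction keeps cells in which few UMIs were sampled more often than others, and was set after the values had been seen. Mature markers were also higher in WT cells of the cDC2 and ribosome-poor classes, at 256 and 170 CPM in Esam/Clec4a4 cDC2, 173 and 106 CPM in Ccr2/Mgl2 cDC2, 269 and 148 CPM in other cDC2 and 334 and 190.0 CPM in ribosome-poor cells, but lower in WT pDC-like cells, at 91.4 and 146 CPM. Without cells holding such a UMI, H2-K1 in Esam/Clec4a4 cDC2 was at 0.38 and Nlrc5 at 0.33. Nlrc5 was then at 0.47 in ribosome-poor cells. In Ccr2/Mgl2 cDC2, with 92 WT and 574 cit/cit cells left, Nlrc5 fell to 0.16, short of the rule.

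In mature DC (1883 and 1149 cells) the members past the rule were lower, not higher. Nlrc5 stood at 617 CPM (WT) and 436 CPM (cit/cit), from 8599 and 2723 UMIs, a ratio of −0.50 (−0.57 to −0.44). Tap2 was at 185 and 133 CPM (−0.48) and Tapbp at 299.7 and 222 CPM (−0.43). These 3 were lower and 0 higher by the rule, beside 11.6% of genes lower and 18% higher. Tap1 was at 197 and 173 CPM (−0.19), with H2-K1 at 2028 and 2251 CPM (0.15), H2-D1 at 1989.6 and 1925 CPM (−0.05), B2m at 2793 and 2448 CPM (−0.19), Psmb8 at 455 and 458 CPM (0.01), Psmb9 at 313 and 308 CPM (−0.02) and Erap1 at 73.0 and 67.2 CPM (−0.12). Part of this went with the mature DC that held cDC1 genes, nearly all of which were WT. In mature DC without cDC1 genes the ratios were −0.35 for Nlrc5 (554 and 433 CPM), −0.38 for Tap2, −0.33 for Tapbp and −0.06 for Tap1, with the first 3 of these still lower by the rule, beside 10.1% of genes lower and 13.4% higher.

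The smaller classes give wider intervals. In proliferating cells Nlrc5 was at 73.6 and 114 CPM (0.63, interval 0.39 to 0.88) and Tap1 at 128 and 163 CPM (0.35), the 2 members higher there, beside 9.47% of genes higher and 10.1% lower. In pDC-like cells (108 and 107 cells) H2-K1 was at 2056 and 1946 CPM (−0.08, interval −0.17 to 0.01), H2-D1 at 1839 and 1719.6 CPM (−0.10) and Nlrc5 at 114 and 138 CPM (0.27, interval −0.10 to 0.64). The H2-K1 gap seen in cDC2 was thus not seen in pDC-like cells, whose interval for H2-K1 ends below the one for Esam/Clec4a4 cDC2. Outside the DC classes H2-K1 was at 1880 and 2347 CPM in monocyte-like cells and 1860 and 2494 CPM in NK-like cells. The intervals of the 2 libraries did not overlap in either class. In macrophage-like cells H2-K1 was at 1446 and 1534 CPM, with overlapping intervals. In monocyte-like cells (87 and 82 cells) 3 members were higher and 1 lower, beside 20.2% of genes higher and 24.2% lower. Nlrc5 was at 65.5 and 111 CPM (0.76), Tap1 at 85.0 and 120 CPM and Tapbp at 131 and 170 CPM. The 1 lower was Erap1, at 70.8 and 27.2 CPM from 40 and 12 UMIs (−1.38, interval −2.45 to −0.42).

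**Figure D3:**
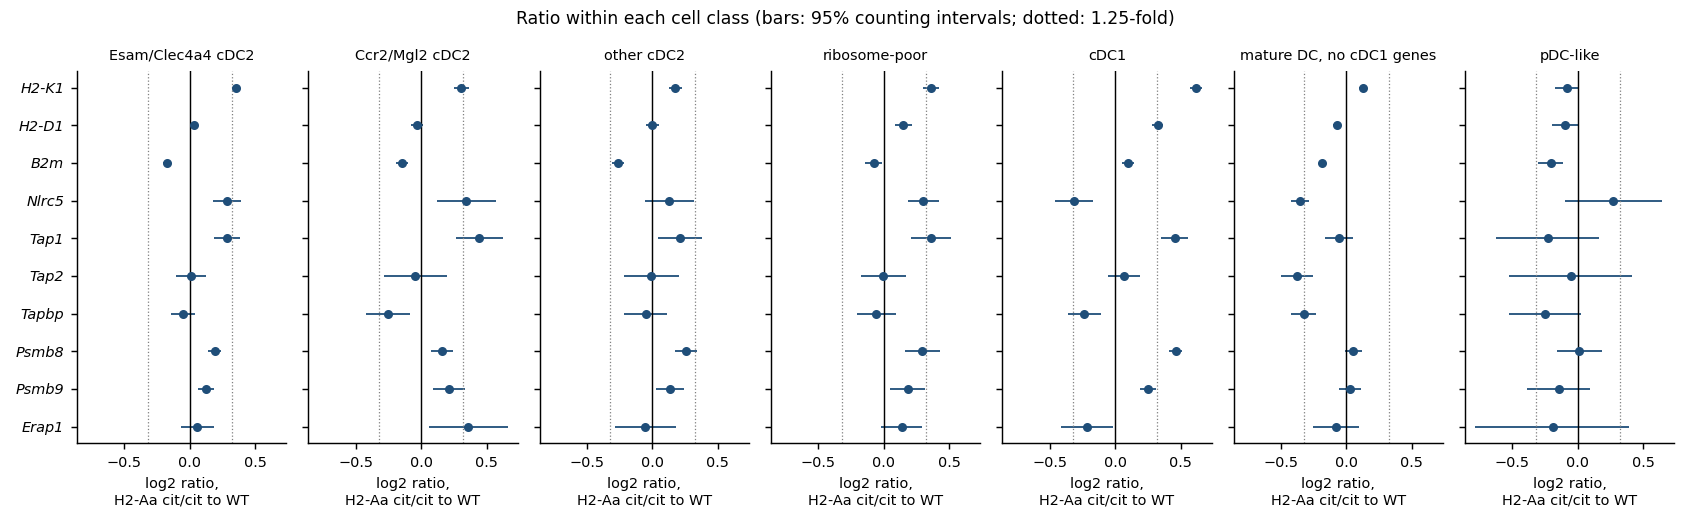
The log2 ratio of H2-Aa cit/cit to WT (x axis) of the 10 genes (y axis) in 7 cell classes, with bars for 95% counting intervals and lines at 0.32 and −0.32. H2-K1 lay at 0.36 in Esam/Clec4a4 cDC2 and 0.62 in cDC1, and Nlrc5 lay at 0.28 and −0.31 in the same classes and at −0.35 in mature DC without cDC1 genes.

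Shares within pairs of related genes do not depend on the UMI total and so set the partners directly against each other. H2-K1 took 47.1% of the UMIs of H2-K1 and H2-D1 in WT Esam/Clec4a4 cDC2 and 52.7% in cit/cit cells. It took 41.7% and 47.5% in Ccr2/Mgl2 cDC2, 49.8% and 53.5% in ribosome-poor cells, 40.8% and 45.8% in cDC1, and 50.5% and 54.0% in mature DC without cDC1 genes. The share of H2-K1 was thus larger in the cit/cit library in all 5 of these classes, and nearly equal in pDC-like cells (52.8% and 53.1%).

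Within the transporter pair, Tap1 took 55.8% and 60.4% of the UMIs of Tap1 and Tap2 in Esam/Clec4a4 cDC2, 61.9% and 69.6% in Ccr2/Mgl2 cDC2, 57.3% and 63.7% in cDC1 and 51.3% and 56.8% in mature DC without cDC1 genes. In pDC-like cells the share was 60.3% in WT and 57.4% in cit/cit cells. The immunoproteasome subunit Psmb8 was set against Psmb5, the constitutive subunit whose place it takes, and its share was the same in the libraries to within 1 percentage point in Esam/Clec4a4 cDC2 (79.2% and 79.5%), cDC1 (81.3% and 82.2%) and mature DC (85.4% and 85.3%). It differed more in proliferating cells (75.8% and 79.5%). Psmb9 took 76.8% and 74.6% of its pair with Psmb6 over the whole library, but 73.7% and 73.9% in Esam/Clec4a4 cDC2, 64.8% and 69.5% in Ccr2/Mgl2 cDC2 and 82.1% and 79.1% in cDC1, so that the classes differed in direction. Psmb10, the third inducible subunit, took a larger share of its pair with Psmb7 in cit/cit DC, at 52.7% and 61.2% over the whole library, 58.3% and 64.7% in Esam/Clec4a4 cDC2, and 45.5% and 52.5% in cDC1.

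**Figure D4:**
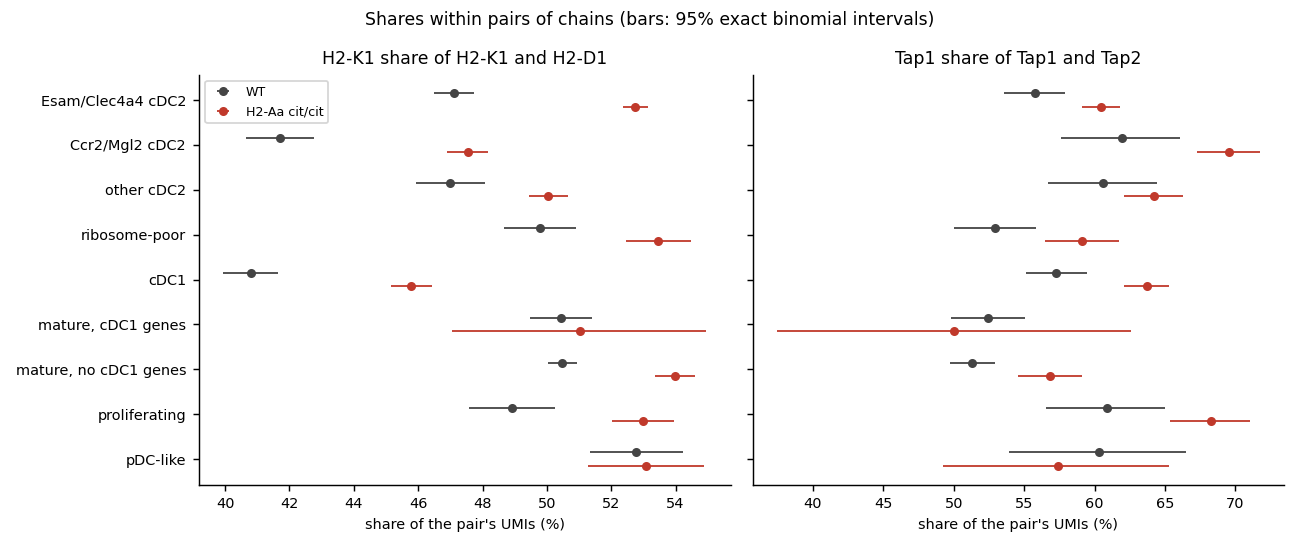
Percent of the UMIs of a gene pair that the first gene took (x axis) in cell classes (y axis), for the heavy chain and the transporter pairs in both genotypes, with bars for 95% counting intervals. In Esam/Clec4a4 cDC2 of WT and cit/cit mice, the H2-K1 share was 47.1% and 52.7%, and the Tap1 share was 55.8% and 60.4%.

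Per cell, heavy chain levels overlapped widely between the libraries. The median of H2-K1 and H2-D1 UMIs together, per 10000 UMIs of a cell, was 22.2 in WT and 24.9 in cit/cit Esam/Clec4a4 cDC2, 30.3 and 31.8 in Ccr2/Mgl2 cDC2, 19.6 and 25.9 in cDC1, 37.2 and 39.4 in mature DC, and 9.09 and 11.1 in ribosome-poor cells. The median was higher in cit/cit cells in each of these 5 classes. Cells of 1 library are not replicates, so this describes the spread within each library only.

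Other genes of the pathway were read from lists chosen by name. The 7 loading partners were ER chaperones and enzymes that fold the heavy chain, with Tapbpl, a gene named for its likeness to tapasin. Of these, 6 were higher and 0 lower over the whole library (median ratio 0.75), 6 and 0 in Esam/Clec4a4 cDC2 (0.75) and 6 and 0 in Ccr2/Mgl2 cDC2 (0.54). The counts were 7 and 0 in cDC1 (1.06), 5 and 0 in mature DC (0.48) and 4 and 0 in ribosome-poor cells (0.84). Tapbpl had the lowest ratio of the list in the whole library (−0.24), mature DC (−0.19) and ribosome-poor cells (0.01). Of all genes, 13.2% were higher and 14.1% lower in the whole library, and 5.99% and 4.55% in Esam/Clec4a4 cDC2. These shares were 8.3% and 7.19% in Ccr2/Mgl2 cDC2, 17.1% and 20% in cDC1, 18% and 11.6% in mature DC and 9.91% and 6.56% in ribosome-poor cells. In Esam/Clec4a4 cDC2 Hspa5 (BiP), the ER chaperone that rises with unfolded protein, was at 259 and 899.6 CPM (1.80), Pdia3, a disulfide isomerase of the loading complex, at 182 and 418 CPM (1.20) and Calr (calreticulin) at 229 and 463 CPM (1.01). In cDC1 Hspa5 was at 2.78, Calr at 1.87 and Pdia3 at 1.57. Tapasin, which works beside them, did not share these ratios, with −0.05 and −0.24 in the same classes.

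Interferon-stimulated genes were mostly higher in cit/cit DC of the cDC2 and ribosome-poor classes, whereas few of them passed the floor in cDC1 and mature DC. Of the 11 in the matrices, 7 of 8 genes over the floor were higher and 0 lower in the whole library (median 1.02), 8 of 9 in Esam/Clec4a4 cDC2 (0.67), 8 of 8 in Ccr2/Mgl2 cDC2 (1.18), 6 of 6 in ribosome-poor cells (0.87), 2 of 3 in cDC1 (0.70) and 2 of 4 in mature DC (0.45). Of all genes, 13.2% were higher in the whole library, 5.99% in Esam/Clec4a4 cDC2 and 8.3% in Ccr2/Mgl2 cDC2. That share was 9.91% in ribosome-poor cells, 17.1% in cDC1 and 18% in mature DC. In Esam/Clec4a4 cDC2 the widest ratios were those of Oasl2 (0.96), Isg20 (0.87) and Irf7 (0.78), and in Ccr2/Mgl2 cDC2 those of Isg20 (1.68), Ifit3 (1.34) and Isg15 (1.24). Among 16 regulators, 3 of 14 over the floor were higher and 0 lower in Esam/Clec4a4 cDC2, beside 5.99% and 4.55% of all genes. The higher ones included the interferon regulatory factors Irf8 (0.48) and Irf1 (0.35). In Ccr2/Mgl2 cDC2 4 of 14 were higher and 1 lower, beside 8.3% and 7.19% of all genes. Stat2 was at 0.51 and Irf1 at 0.49, and the 1 lower was Irf8 (−0.39). In cDC1 2 of 14 were higher and 2 lower, beside 17.1% and 20% of all genes, with Irf1 at 0.74. In mature DC 1 of 13 was higher and 2 lower, beside 18% and 11.6% of all genes, with Irf8 at −0.50 and Irf1 at 466 and 364 CPM (−0.36). The counts in cDC1 and mature DC were thus near those over all genes. Irf1, 1 of the 16 regulators, and Nlrc5 lay on the same side of 0 in Esam/Clec4a4 cDC2, Ccr2/Mgl2 cDC2 and mature DC. They lay on opposite sides in cDC1. Irf8 lay on the same side as Nlrc5 in Esam/Clec4a4 cDC2 (0.48) and mature DC (−0.50), and opposite to it in Ccr2/Mgl2 cDC2 (−0.39). The part of the interferon-stimulated genes and regulators in the members' ratios was not tested.

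Other MHC-I genes did not all follow one direction. In Esam/Clec4a4 cDC2 3 of 6 were higher and 1 lower, beside 5.99% and 4.55% of all genes. H2-Q6 was at 0.80, H2-Q7 at 146 and 218 CPM (0.57) and H2-T22 at 0.49, whereas H2-T23, which encodes the Qa-1 chain, was at −0.38. In cDC1 5 of 7 were higher and 1 lower, beside 17.1% and 20% of all genes. There H2-Q6 was at 1.30, H2-Q7 at 1.27 and Cd1d1, which presents lipids, at −0.48. In mature DC 2 of 7 were higher and 2 lower, beside 18% and 11.6% of all genes, with H2-T23 at −0.48. H2-Q6 and H2-Q7 are close relatives, so reads may be split between them. Of 7 further proteasome genes 0 were higher or lower in the whole library, in Esam/Clec4a4 cDC2 and in Ccr2/Mgl2 cDC2. Of all genes, 13.2% were higher and 14.1% lower in the whole library, and 8.3% and 7.19% in Ccr2/Mgl2 cDC2. In cDC1 3 of these proteasome genes were higher (Psmb6 0.53, Psmb5 0.37, Psmb10 0.34). Of 8 cross-presentation genes, 2 were higher and 0 lower in Esam/Clec4a4 cDC2, beside 5.99% and 4.55% of all genes. In cDC1 3 were higher and 1 lower, beside 17.1% and 20% of all genes. There Derl1 (1.27) and Sec61a1 (1.22), parts of the ER protein channel and its exit path, were higher. Wdfy4, needed for cross-presentation by cDC1, was lower (−0.50).

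The share of ribosomal UMIs also differed between the libraries, with medians of 17.0% in WT and 18.8% in cit/cit Esam/Clec4a4 cDC2. The medians were 19.6% and 21.4% in cDC1, 7.79% and 10.1% in mature DC without cDC1 genes and 3.36% and 4.57% in ribosome-poor cells. The ratios were therefore also taken within bins of 5 percentage points of this share, a choice made after the values had been seen. Across the 6 bins of cDC2 and ribosome-poor cells, Nlrc5 was at 0.24 to 0.62 and Tap1 at 0.24 to 0.39, each with its interval above 0 in 6 of 6 bins. H2-K1 was at 0.05 to 0.37, with its interval above 0 in 5 of 6, and B2m had its interval below 0 in 5 of 6. Across the 5 bins of mature DC, Tapbp was at −0.65 to −0.34 with its interval below 0 in 5 of 5, Nlrc5 at −0.47 to −0.15 with its interval below 0 in 3 of 5, and H2-K1 at 0.02 to 0.21. Psmb8 in mature DC ran from −0.51 to 0.33 over the bins, with its interval below 0 in 4 of 5, against 0.01 for the class as a whole.

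**Figure D5:**
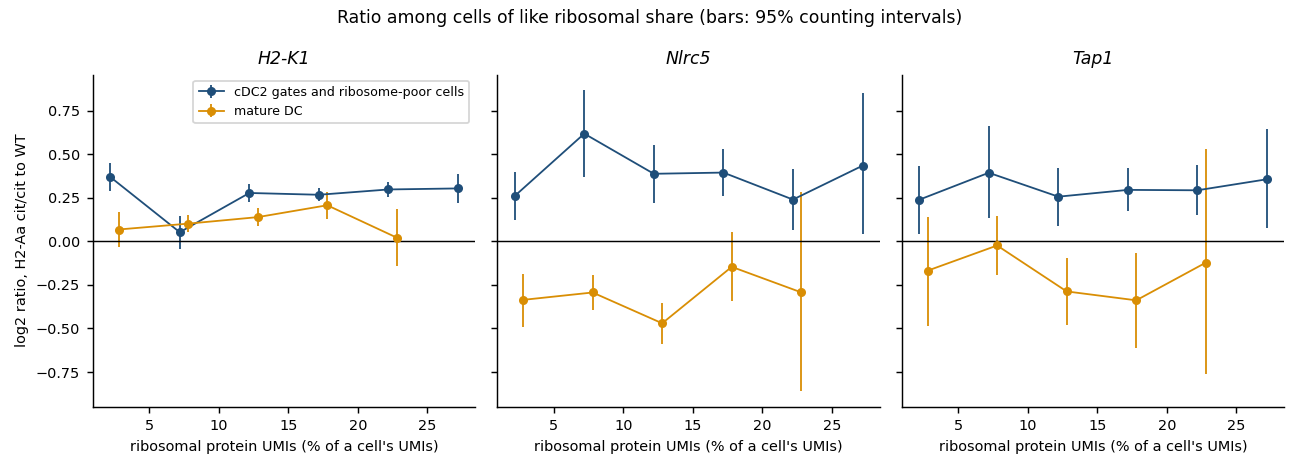
The log2 ratio of H2-Aa cit/cit to WT (y axis) of H2-K1, Nlrc5 and Tap1 in cells binned by their percent of ribosomal UMIs (x axis, bins of 5 points), for cDC2 with ribosome-poor cells and for mature DC, with bars for 95% counting intervals. Nlrc5 stayed above 0 in 6 of 6 bins of the former, at 0.24 to 0.62, and below 0 in 5 of 5 bins of mature DC, at −0.47 to −0.15.

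The genes most like a member across classes were found by Pearson correlation of log2(CPM + 10) over 24 points, 12 classes in each of 2 libraries, which share libraries and depth, and are given as a description. H2-K1 was most like H2-D1 (0.894), H2-Q7 (0.837), B2m (0.831), H2-T22 (0.799) and Eif1 (0.789), so that 4 of its 5 nearest genes were MHC-I genes or B2m. Tap1 was most like Mtmr14 (0.831), Vcp (0.823), Slc3a2 (0.812), Psmb7 (0.794) and Tap2 (0.786). Nlrc5 was most like Epsti1 (0.958), Mxd1 (0.954), Rnf115 (0.949), Dnm1l (0.943) and Ccser2 (0.928), and its likeness to Tap2 (0.786) and Tapbp (0.702) was above that to H2-K1 (0.377).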

How the data were processed

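Single-cell RNA-seq libraries were made by the authors from CD11c-enriched, sorted splenic DC with the 10x Chromium Next GEM Single Cell 3′ kit, 1 library per genotype from 3 pooled mice each. The deposited matrices give unnormalized UMI counts for each cell. The authors obtained them by aligning to GRCm38 (mm10) in Cell Ranger 5.0.1, per the submitters' processing notes and the study's methods. The count matrices hold 32285 genes. The study removed cells under 200 genes and cells of very high mitochondrial content, at a limit it does not give. The deposited matrices hold slightly more cells than the study reports analysing. These cells had at least 240 genes and 500 UMIs, and all were kept. Among them, 93 WT and 99 H2-Aa cit/cit cells were over 10% mitochondrial UMIs.

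Classes were gated in fixed order on the number of markers with a UMI and their UMIs per 10000, with thresholds set from marker values alone. Doublets were not removed, and 24 WT and 12 H2-Aa cit/cit cells passed gates of more than 1 lineage. UMIs were summed per class and library and divided by the class total. Totals were compared as deposited and with WT class UMI shares as weights. Intervals were exact Poisson for levels, exact conditional binomial for ratios, and delta-method for weighted ratios. Named are the 10 members, and of each list the 3 genes farthest apart in either direction among those of at least 20 CPM, of which the text gives those that matter. The values of 1 listed gene are not reported here. Members and lists were chosen with earlier results of these data known.

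Alternatives were size-factor scaling, means over cells, totals without ribosomal and mitochondrial UMIs, a 1.5-fold rule, filters on mitochondrial share (10%), depth (1500 UMIs) and multiple gates, halved or doubled thresholds, assignment by marker z-score, other weights and a floor of 5 CPM. Scripts were tested on simulated data and used Python 3.11.15, numpy 2.4.6, scipy 1.17.1, pandas 2.3.3 and matplotlib 3.10.9. Annotation was GENCODE vM21, and promoter windows came from RefSeq.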

Additional observations from a re-analysis of the deposited data

Results flagged for a closer look

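Nlrc5 had ratios of opposite direction in 2 classes of the same libraries. In Ccr2/Mgl2 cDC2 its log2 ratio was 0.34 (0.12 to 0.57) and in mature DC −0.50 (−0.57 to −0.44), a gap of 0.844, and the difference between the classes was not tested. Without cells holding a UMI of a mature DC marker, the ratio in Ccr2/Mgl2 cDC2 was 0.16, from 92 WT and 574 cit/cit cells.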

How the results depend on the processing

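Of 650 alternative values of single-member ratios, 568 moved by less than their counting interval, 82 moved further and 0 turned a value that had passed the fold rule. With a 1.5-fold rule 1 member remained past it in the whole library (Nlrc5, lower), 1 in cDC1 (H2-K1, higher), and 0 in Esam/Clec4a4 cDC2, Ccr2/Mgl2 cDC2, ribosome-poor cells and mature DC. No share of all genes was set beside member counts under this or the other alternative settings, so those counts describe the members alone. Members past the fold rule numbered 1 in Ccr2/Mgl2 cDC2 and 4 in ribosome-poor cells with gate thresholds halved, 1 and 0 with thresholds doubled, and 2 in Esam/Clec4a4 cDC2 and 0 in Ccr2/Mgl2 cDC2 when cells went to the class of the highest marker z-score. In cells with no UMI of a mature DC marker, an alternative chosen after seeing the data like that without mature DC with cDC1 genes and the ribosomal bins, 2 passed in Esam/Clec4a4 cDC2 and 4 in ribosome-poor cells. In cDC1 without such a UMI, Psmb8 (0.11) no longer passed, while Tapbp (−0.35) and Erap1 (−0.34) passed as lower. The whole-library ratio of Nlrc5 ran from −0.82 to −0.48, the latter as a mean over cells, and its class-weighted ratio from −0.30 with thresholds halved to 0.02 with cit/cit shares as weights. Its ratio in cDC1 ran from −0.55 with thresholds doubled to 0.42 in cells with no UMI of a mature DC marker. That of H2-K1 stayed at 0.33 to 0.38 in Esam/Clec4a4 cDC2 and 0.49 to 0.87 in cDC1. With a floor of 5 CPM 13.8% of all genes were higher and 15.3% lower in the whole library. No paired analysis was possible because each genotype had 1 library. Depth limits Nlrc5, Tap1, Tap2 and Erap1 most in the classes of under 300 cells.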
